A study of Mus musculus with 3 samples.

Results

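Genes of neural progenitors and of the first steps of neurogenesis were described in mouse embryos, 10 in all: Sox1, Sox2, Sox3, Sox21, Fabp7, Hes5, Nes, Neurog1, Neurog2 and Nrn1. All non-control probes whose RefSeq accession is that of 1 of these genes were taken. This gave 12 of the 55681 non-control probes, or 10 of 36983 genes and transcripts, of the array. Sox1 and Sox21 have 2 probes each and the others 1. The embryos were collected at stage E8.75 (days after conception), and each of 3 arrays set RNA labelled as wild-type (Cy3, green) against RNA labelled as Brpf1-deficient (Cy5, red), which makes 1 group of 3 pairs. The labels name neither the strain nor the Brpf1 allele, nor whether 1 embryo or several gave an RNA, and no treatment was applied. Brpf1 encodes a scaffold of histone acetyltransferase complexes. The genes were chosen by their role, with their log2 ratios on these arrays already known, those of Fabp7 and Nrn1 among them. The ratios of the members are therefore a description, and no test is offered in their support.

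In the neural plate and early neural tube, the SoxB1 factors Sox1, Sox2 and Sox3 keep cells in a dividing progenitor state. Sox21, of the SoxB2 group, and the proneural factors Neurog1 and Neurog2 drive cells out of that state towards neurons. Notch signalling between neighbouring cells acts through RBPJ to switch on Hes5, which represses proneural genes, so that only some cells differentiate at a time. Nes encodes the intermediate filament nestin and Fabp7 a brain fatty acid binding protein, both used as markers of neural progenitors. Nrn1 encodes neuritin, a small membrane-anchored protein that promotes the growth of neurites.

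RefSeq promoter sequences (build GRCm38.p6) were at hand for 8 of the 10 members, and those of Fabp7 and Hes5 are shown. Fabp7 had the most even ratio of the members over the pairs, and Hes5, the Notch target, the least even. Each runs 5′ to 3′ over the 250 bases before the annotated start, on the plus strand. Capitals mark the core of the RBPJ motif (TGGGAA) and a loose form of a Sox-type motif (ACAANG, where N is any base), read on both strands.
Fabp7, chr10:57784673-57784922: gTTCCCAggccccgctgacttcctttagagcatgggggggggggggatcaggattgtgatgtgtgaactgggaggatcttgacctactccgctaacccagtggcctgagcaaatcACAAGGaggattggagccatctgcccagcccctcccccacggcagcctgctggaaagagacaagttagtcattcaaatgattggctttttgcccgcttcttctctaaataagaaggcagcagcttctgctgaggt
Hes5, chr4:154960673-154960922: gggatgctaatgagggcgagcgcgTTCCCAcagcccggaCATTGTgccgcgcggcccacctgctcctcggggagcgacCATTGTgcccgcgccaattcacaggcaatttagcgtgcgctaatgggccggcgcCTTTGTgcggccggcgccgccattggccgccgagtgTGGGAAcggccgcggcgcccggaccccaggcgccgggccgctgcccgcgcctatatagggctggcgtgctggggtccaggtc
The Hes5 window holds 2 RBPJ cores, which begin 226 and 82 bases before the start, and 3 Sox-type matches. The Fabp7 window holds 1 RBPJ core at its outer edge, 249 bases before the start, and 1 Sox-type match, and no marked match overlaps another. Among all 32841 promoter windows of this length, 21.6% hold the RBPJ core and 36.3% the Sox-type motif. Of the 8 member windows, 2 hold the first and 5 the second. A match is a run of letters and was not tested as a binding site.

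All 3 arrays share 1 slide and 1 scan time. RNA labelled as wild-type was always in Cy3, so genotype and dye cannot be told apart. Between 50.7% and 61.1% of the non-control spots were well above background in a channel, and no member spot was saturated or an outlier. Across the 23555 genes and transcripts tested, Pearson correlations of the log2 ratios between pairs ran from 0.152 (2 with 3) to 0.409 (1 with 2). Genes, over which these were taken, are no independent replicates. Brpf1 itself had a log2 ratio of Cy5 over Cy3 of 2.01, 1.43 and 1.06 in the 3 pairs, higher in the channel labelled deficient. Where its probe lies relative to the disrupted part was not analysed here, so it does not check the labels, and directions below are those of the labelled channels. The authors' deposited table leaves the direction of its log2 ratio unstated. Its values correlate at -0.80 with Cy5 over Cy3 across probes, so they are turned below where said. Whether RNA came from separate litters is not given, so p-values measure no spread beyond these pairs. For each gene, limma also draws that spread towards the spread of all genes tested.

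The members did not move as a group. Nrn1 (2.23-fold) and Fabp7 (1.51-fold) were brighter in Cy5 in every pair, while the 7 other members tested had mean log2 ratios from -0.21 to 0.15. Neurog1 was too dim to be tested. Of the 9 members tested, 7 had a mean above 0, as did 45.6% of all genes tested, and the median of their log2 ratios was 0.06 beside -0.02 for all genes tested. By the brightest probe per gene, only Fabp7, Nrn1 and Sox2 had 1 sign in all 3 pairs, as did 43.4% of all genes tested. Above 0 in all pairs were 2 members and 19.7% of all genes. The dimmer Sox21 probe, not in the fit, was also above 0 in all pairs, with a mean of 0.40. In whole-embryo RNA, more cells of a type and more RNA per cell cannot be told apart.

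**Figure D1:**
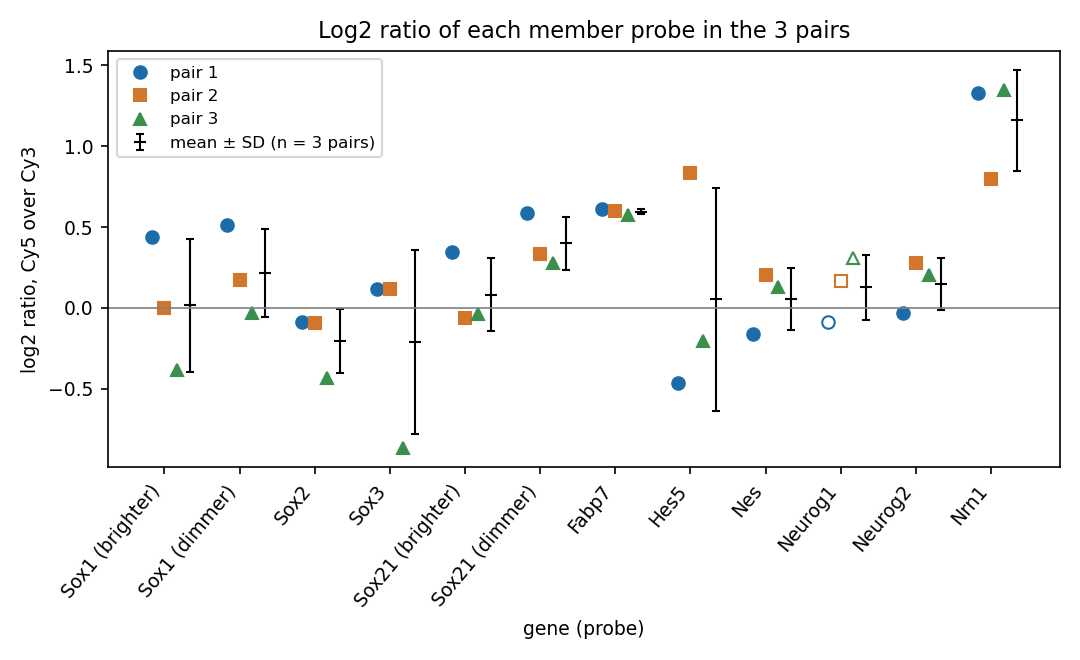
Log2 ratio of Cy5 (labelled Brpf1-deficient) over Cy3 (labelled wild-type) for each of the 12 member probes; coloured symbols are the 3 pairs, and bars are the mean ± SD over pairs. The Nrn1 and Fabp7 symbols all lie above 0, and Hes5 spans -0.47 to 0.84. The SoxB1 probes are lowest in pair 3, as are Fabp7 and the dimmer Sox21 probe. The open symbols of Neurog1 mark a probe well above background on 1 array only.

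Nrn1 had median spot intensities of 323, 459.5 and 283 in Cy3 and, in Cy5, 1322, 1008 and 1128 on arrays 1, 2 and 3. The log2 ratios after loess normalization within each array were 1.33, 0.80 and 1.35, with a mean of 1.16 ± 0.31 (SD, n = 3 pairs). Pair 2 was the lowest, and its Cy3 level was the highest of the 3. On the scale normalized between arrays, the log2 intensity of Nrn1 was 8.70 ± 0.24 (SD, n = 3) in Cy3 and 9.86 ± 0.08 in Cy5, with the wider spread in Cy3. The levels of the channels did not overlap. Among the log2 ratios of all genes tested, that of Nrn1 stood at percentile 99.7 in pair 1, 97.2 in pair 2 and 99.8 in pair 3. The authors' deposited table lists this probe at -1.43 on the log2 scale, with an adjusted p of 0.274, which turned to Cy5 over Cy3 is 1.43.

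Fabp7 had median spot intensities of 896, 1092 and 729.5 in Cy3 and 2275, 1925.5 and 1725.5 in Cy5. Its log2 ratios were 0.61, 0.60 and 0.58, with a mean of 0.60 ± 0.02 (SD, n = 3 pairs). The 3 pairs were nearly equal: the SD of 0.0171 stood at percentile 0.968 among all genes tested, whose median SD was 0.159. The limma test of Fabp7 used a larger spread, drawn towards that of all genes, with an SE of 0.0767. Normalized log2 intensity was 10.09 ± 0.11 (SD, n = 3) in Cy3 and 10.68 ± 0.13 in Cy5, without overlap. The array with the highest Cy3 level also had the highest Cy5 level, and the array with the lowest Cy3 level the lowest Cy5 level. In the authors' deposited table Fabp7 stands at -0.67 (adjusted p of 0.286), or 0.67 when turned.

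Nrn1 and Fabp7 were the 2 of 9 members past the limma threshold of an adjusted p of 0.05 in the higher direction, which 1.29% of all genes tested passed (1.38% in either direction). They were also the 2 members with no overlap between the channels, a pattern found with Cy5 higher in 8.55% of all genes tested. No member had Cy3 higher without overlap, against 11.1% of all genes. Nothing is read from these counts, since the set was chosen with the ratios known. No member passed in the lower direction (limma, 0.0934% of all genes), where none had an unadjusted p below 0.05 either. Without pair 1, 2 or 3 in turn, 0 of the 9 members passed in limma. An unadjusted p below 0.05 was found for 2, 3 and 2 of them, beside 2145, 3831 and 3408 of all 23555 genes. The log2 ratio of Nrn1 was then 1.07, 1.34 and 1.06, and that of Fabp7 0.59, 0.59 and 0.61. When genes brighter than a mean log2 intensity of 16 were left out of the fit, neither Nrn1 nor Fabp7 passed. Neither did with the scanner's processed signals, a loess span of 0.02 or scaling between arrays. In each of these fits 2 members had an unadjusted p below 0.05. So had 3350 of 22261 genes in the first fit, and 3454, 3508 and 4325 of 23555 in the others. Nrn1 alone passed with median centring or with the mean over a gene's probes.

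**Figure D2:**
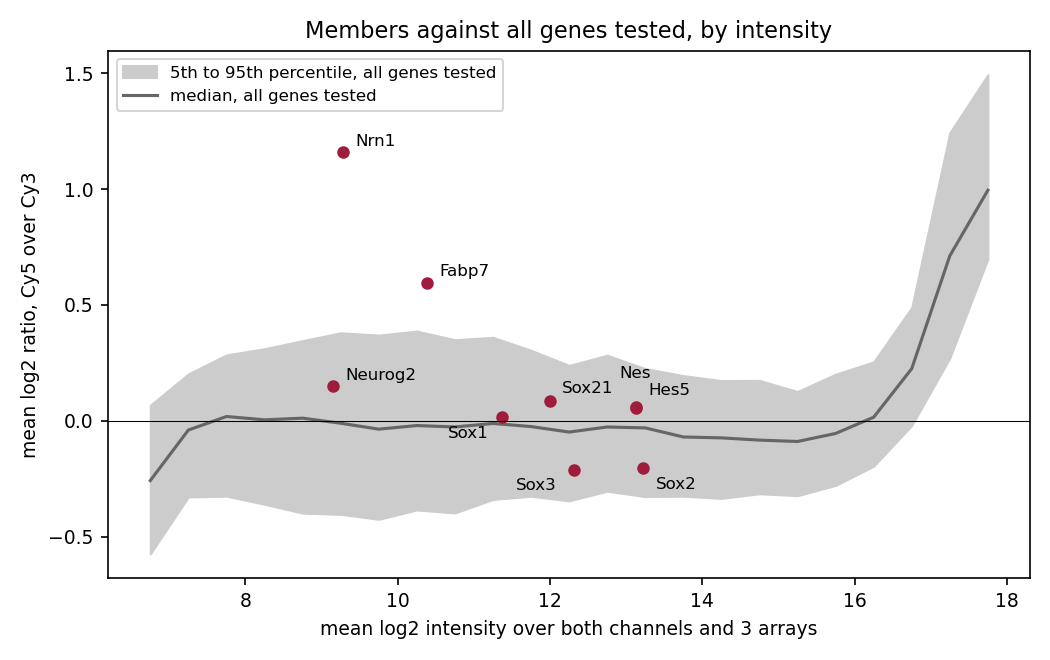
Mean log2 ratio of Cy5 over Cy3 (vertical axis) against mean log2 intensity over both channels and all arrays (horizontal axis); the grey band spans most genes tested, leaving out the extremes, and the line is their median in steps of 0.5, and red points are the 9 members tested. Nrn1 and Fabp7 lie above the band, the 7 other members lie within it, and all 9 lie at intensities below the bright end, where the median rises to 0.99.

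Of the SoxB1 genes, Sox1 and Sox3 differed most between pairs, while the spread of Sox2 stood at percentile 61.8 of all genes tested. Sox2, the progenitor factor shared by neural and pluripotent cells, had median spot intensities of 6558, 10824.5 and 8018 in Cy3 and 11175.5, 11933.5 and 9976 in Cy5. Its log2 ratios were -0.09, -0.09 and -0.43, with a mean of -0.20 ± 0.20 (SD, n = 3 pairs). Sox2 was below 0 in all pairs, as were 23.8% of all genes tested, but the channels overlapped, and pair 3 was the lowest.

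Sox3, the X-linked SoxB1 gene, had 4003.5, 5179 and 4477 in Cy3 and 7617, 6278 and 3984 in Cy5. Its log2 ratios were 0.12, 0.11 and -0.87, and the mean was -0.21 ± 0.57 (SD, n = 3 pairs). Pair 3 alone gave the mean its sign: without it the mean was 0.12. The Sox3 ratio of pair 3 was at percentile 0.386 of all genes tested, against 73.8 and 68.6 in pairs 1 and 2. The normalized log2 intensity shows that Cy3 of array 3 was the highest of the Cy3 levels (12.58) and Cy5 of array 3 the lowest of the Cy5 levels (11.71).

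Sox1, the SoxB1 gene most restricted to the neural plate, had 2 probes. The brighter had median intensities of 1812, 2952 and 1937 in Cy3 and 4159, 3274 and 2379 in Cy5, and log2 ratios of 0.44, 0.00 and -0.38 (mean 0.02 ± 0.41, SD, n = 3 pairs). The dimmer probe had 0.51, 0.17 and -0.03 (0.22 ± 0.27). Both probes put pair 1 highest and pair 3 lowest, and neither had a mean larger than its spread. In all, 4 of 4 SoxB1 probes, 2 of them of Sox1, were lowest in pair 3. So were Fabp7 and the dimmer Sox21 probe, and the share among all genes was not counted. Without pair 1 the brighter Sox1 probe had a mean of -0.19, and without pair 3 it had 0.22.

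Other measures that differed between the pairs are given beside this, and their part in the SoxB1 ratios was not tested. The pairs differed in sex-linked transcripts, a list chosen after the values were seen. The Y-linked Ddx3y, Eif2s3y and Uty were well above background in Cy5 but not in Cy3 in pair 1, in both channels in pair 2, and in Cy3 but not in Cy5 in pair 3. Pairs 1 and 3 therefore differed in opposite directions, by sizes that were not measured. Pair 2 had log2 ratios of -0.23 for Ddx3y, 0.02 for Eif2s3y and 0.85 for Uty, whose probe is dim (mean log2 intensity 7.6). Xist, the RNA of the inactive X chromosome, had -0.04 in pair 1 and 2.69 in pair 3 and was not well above background in either channel of pair 2. Kdm5d did not pass the filter. The 11 tested genes of the somite and presomitic mesoderm list had a median of 0.18, 0.21 and -0.49 in pairs 1, 2 and 3. The 14 neural crest markers tested had -0.06, -0.05 and 0.25, and the 12 cardiomyocyte markers -0.45, -0.33 and -0.01.

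Sox21, which counteracts SoxB1 factors as cells differentiate, had 2 probes whose ratios differed in size. The brighter probe had median intensities of 2881.5, 4551.5 and 2677 in Cy3 and 6320, 4880 and 4206 in Cy5, with log2 ratios of 0.35, -0.06 and -0.04 (mean 0.08 ± 0.23, SD, n = 3 pairs). The dimmer had 1118, 1798 and 1082 in Cy3, 2808, 2560.5 and 2069 in Cy5, and ratios of 0.58, 0.34 and 0.28 (0.40 ± 0.16). The dimmer probe was above 0 in every pair and the brighter in pair 1 only. Channels overlapped for both. The authors' deposited table, turned to Cy5 over Cy3, lists 0.09 for the brighter and 0.44 for the dimmer probe. The mean over both probes was 0.24.

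Hes5, the Notch effector, varied most. Its median spot intensities were 5613, 9901.5 and 6486 in Cy3 and 7192, 21346.5 and 9355 in Cy5. Its log2 ratios were -0.47, 0.84 and -0.21, with a mean of 0.05 ± 0.69 (SD, n = 3 pairs), and pair 2 stood opposite to the others. The spread was on the Cy5 side: on the scale normalized between arrays, log2 levels were 13.10 ± 0.35 (SD, n = 3) in Cy3 and 13.16 ± 1.02 in Cy5. Array 2 was highest in both channels and array 1 lowest in both. The SD of the Hes5 ratio stood at percentile 97.9 of all genes tested, and without pair 2 the mean ratio was -0.34.

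**Figure D3:**
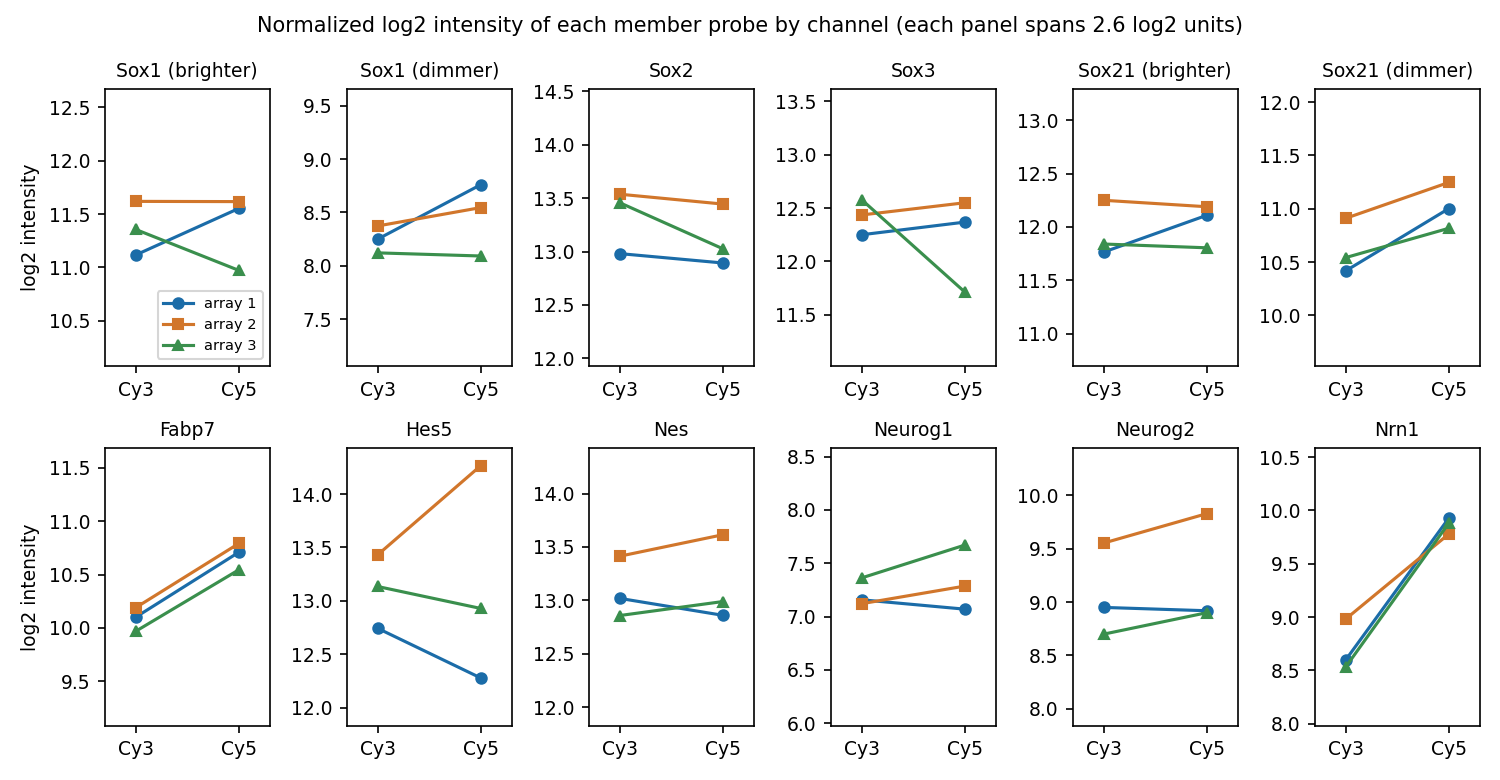
Normalized log2 intensity of each member probe in Cy3 (labelled wild-type) and Cy5 (labelled Brpf1-deficient); each line joins the channels of 1 array, and all panels span the same range of log2 units. Lines run upwards and together for Fabp7 and Nrn1, they fan out for Hes5, and only array 3 falls steeply for Sox3.

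Nes, the progenitor filament, had median intensities of 6731, 9941 and 5368 in Cy3 and 10912, 13424 and 9749 in Cy5. Its log2 ratios were -0.16, 0.20 and 0.13 (mean 0.06 ± 0.19, SD, n = 3 pairs). The mean was smaller than the spread, and the sign differed between pairs.

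Of the proneural genes, Neurog2 had median intensities of 383, 683 and 297 in Cy3 and 615, 1026 and 547 in Cy5. Its log2 ratios were -0.03, 0.28 and 0.20 (mean 0.15 ± 0.16, SD, n = 3 pairs). Its level moved with the array more than with the channel: the 3 arrays gave normalized log2 levels of 8.95, 9.55 and 8.70 (Cy3) and of 8.92, 9.83 and 8.90 (Cy5), so array 2 was highest in both. Neurog1 was dim, with 94, 90 and 108 in Cy3 and 151.5, 159 and 233 in Cy5, and was well above background on 1 of 3 arrays in each channel, that of pair 3. Its log2 ratios of -0.09, 0.17 and 0.31 therefore rest on a measured level in pair 3 only. The authors' deposited table, turned, lists 0.51 for Neurog1 and 0.23 for Neurog2.

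Over the pairs, the median log2 ratio of the 9 members tested was 0.12, 0.20 and -0.04, with 5, 6 and 4 of them above 0. The SD over pairs had a median of 0.228 for the members and 0.159 for all genes tested. Sox1, Sox3 and Hes5 stood at percentile 90.7, 96.1 and 97.9 of that spread, at the opposite end from Fabp7.

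Other genes of the neural plate and of progenitors gave no call. Of 27 listed genes all were tested and none passed in limma in either direction (smallest adjusted p = 0.125), and 4 had an unadjusted p below 0.05, 2 higher and 2 lower, or 14.8% beside 17.3% of all genes tested. The median log2 ratio was 0.02, and 14 genes lay above 0. In pairs 1, 2 and 3 the median was 0.13, -0.04 and -0.08, with 18, 12 and 8 of the 27 above 0. Pax6, a regulator of the dorsal and middle neural tube, had 0.09 ± 0.09 (limma SE, n = 3, limma adjusted p = 0.641). Otx2, of the forebrain and midbrain, had 0.04 ± 0.10 (0.852). Zic2 had 0.08 ± 0.12 (0.769) and Irx3 0.07 ± 0.10 (0.706). Zic1 had a mean of -0.02 ± 0.39 (0.986) from values of -1.18, 0.29 and 0.85, so its pairs lay on both sides of 0. The dimmer Zic1 probe had a mean of 0.25. Msi1, an RNA-binding protein of neural stem cells, had 0.29 ± 0.08 (0.207), while its dimmer probe had -0.31.

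Genes that act with Hes5 and the neurogenins lay mostly below 0 without a call. Of 24 listed Notch and proneural genes 23 were tested, 0 passed in limma (smallest adjusted p = 0.166), and 18 had a mean below 0, as did 12811 of the 23555 genes tested. The median was -0.15 (-0.13, -0.19 and -0.12 in pairs 1, 2 and 3), and 5 (21.7%) had an unadjusted p below 0.05, all lower, as did 2148 of all 23555 in the lower direction. In all 3 pairs 9 of 23 (39.1%) were below 0, beside 23.8% of all genes tested, and none was above 0 in all pairs. The Notch ligand Dll1, made in the neural tube by cells that begin to differentiate, had -0.41 ± 0.10 (SE, n = 3, adjusted p = 0.166). Its ratios were -0.30, -0.34 and -0.59 in the pairs. In whole-embryo RNA, the tissue that gave the Dll1 signal was not measured. The receptor gene Notch1 had -0.37 ± 0.16 (0.331), and Hes1, a repressor related to Hes5, had -0.26 ± 0.13 (0.356). Hes1 was lowest in pair 2 (-0.57), the pair in which Hes5 was highest. Hes6 had 0.00 ± 0.08 (0.992) and Id1, an inhibitor of proneural factors, -0.14 ± 0.08 (0.424).

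Early neuronal genes were split. Of 28 listed genes 22 were tested and 0 passed in limma (smallest adjusted p = 0.136), 11 lay above 0 and 11 below, and the median was -0.01. An unadjusted p below 0.05 was found for 7 of 22 (31.8%), 4 higher and 3 lower, beside 17.3% of all genes tested. Tubb3, the neuronal beta tubulin, had -0.29, -0.76 and -0.77, with a mean of -0.60 ± 0.13 (SE, n = 3, adjusted p = 0.136). Elavl3, an RNA-binding protein of young neurons, had -0.14 ± 0.16 (0.666), Dcx, doublecortin, -0.15 ± 0.11 (0.508) and Stmn2 0.09 ± 0.20 (0.825). The neurogenin targets Neurod1 and Neurod4 were listed but did not pass the filter on dim probes. Pair by pair, the median over the list was 0.18, 0.03 and -0.16.

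Relatives of the members, mostly of the same gene families, gave no call either. Of 27 listed genes 19 were tested, 0 passed in limma (smallest adjusted p = 0.177), 5 (26.3%, beside 17.3% of all genes tested) had an unadjusted p below 0.05 and the median was 0.00. Neurog3, the neurogenin of the endocrine pancreas, had 0.55, 1.26 and 0.41 (mean 0.74 ± 0.18, SE, n = 3, adjusted p = 0.177). Nrn1l, the relative of Nrn1, had 0.02 ± 0.12 (0.940), and Fabp5, a fatty acid binding protein also made by neural progenitors, 0.10 ± 0.08 (0.542). Vim, the filament partner of nestin, had -0.28 ± 0.14 (0.360), and Hes7, the oscillating repressor of the segmentation clock, -0.39 ± 0.13 (0.248). Sox14, the SoxB2 relative of Sox21, did not pass the filter.

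**Figure D4:**
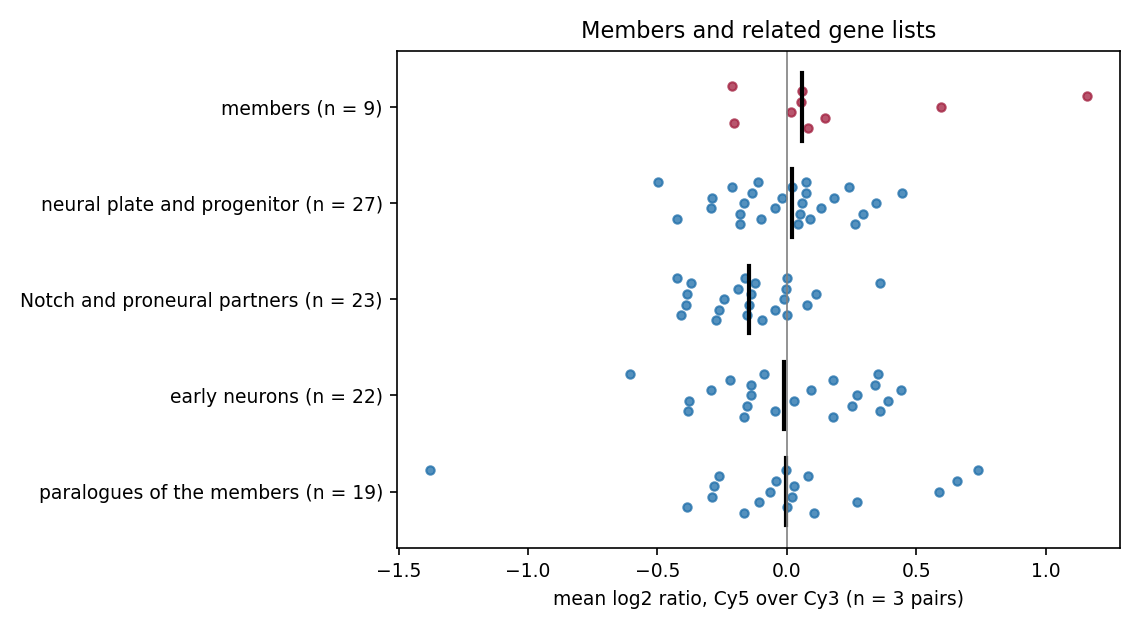
Mean log2 ratio of Cy5 over Cy3 (horizontal axis, n = 3 pairs) of every tested gene in the member set and in 4 related lists; each point is a gene, vertical offsets within a row only separate points, and black bars are medians. The medians are 0.06, 0.02, -0.15, -0.01 and 0.00 from top to bottom, and Nrn1 and Fabp7 are the 2 rightmost points of the top row.

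Markers of other tissues in the embryo moved between the channels too, and their part in the member ratios was not tested. Of all genes tested, 45.6% had a mean above 0, 1.29% passed in limma in the higher direction and 0.0934% in the lower. All 12 visceral endoderm and yolk sac markers had a mean above 0 (median 0.55; 0.24, 0.56 and 0.59 in the pairs), and 1, Apoc2, a lipoprotein lipase cofactor, was higher in limma. Apoc2 has a mean log2 intensity of 16.9, in a range where the median gene had a log2 ratio of 0.22. Other markers of the visceral endoderm and yolk sac list are about as bright, at intensities where the median gene had 0.22 or 0.71. The list median and the sum include them. Summed over this list, normalized intensity was 562267 to 895770 in Cy3 and 882787 to 1291190 in Cy5. The log2 ratio of the sums, Cy5 over Cy3, was 0.35, 0.65 and 0.85 in pairs 1, 2 and 3. Of 12 cardiomyocyte markers 3 were lower, the myosin gene Myh6, the calcium release channel gene Ryr2 and the titin gene Ttn. The list median was -0.25. The summed intensity was 276148 to 410245 in Cy3 and 230425 to 356234 in Cy5. Pair by pair, the log2 ratio of the cardiomyocyte sums was -0.36, -0.20 and -0.004. Another Myh6 probe, which is dim, had 0.11. Of 12 primitive erythroid markers 1, the globin gene Hbb-bh1, was higher, at a mean log2 intensity of 17.6, where the median gene had 0.99. Other globin genes of this list lie where the median gene had 0.71, and the sum includes them. The erythroid sum was 250256 to 938135 in Cy3 and 555152 to 945774 in Cy5. The log2 ratio of the erythroid sums was -0.36 in pair 1, 1.15 in pair 2 and 1.25 in pair 3. Of 11 somite and presomitic mesoderm genes 1, the homeobox gene Uncx, was higher. The Uncx probe is dim (mean log2 intensity 7.9), though well above background in both channels on all 3 arrays. The sum over this list was 30306 to 35881 in Cy3 and 29009 to 40893 in Cy5. The log2 ratio of the sums was 0.29, 0.19 and -0.23 in the pairs. None of 14 neural crest markers passed in limma. None had an unadjusted p below 0.05, against 17.3% of all genes tested. Their summed intensity was 56187 to 67344 in Cy3 and 53672 to 68892 in Cy5. The log2 ratio of these sums was -0.12, -0.16 and 0.29 in the pairs.

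**Figure D5:**
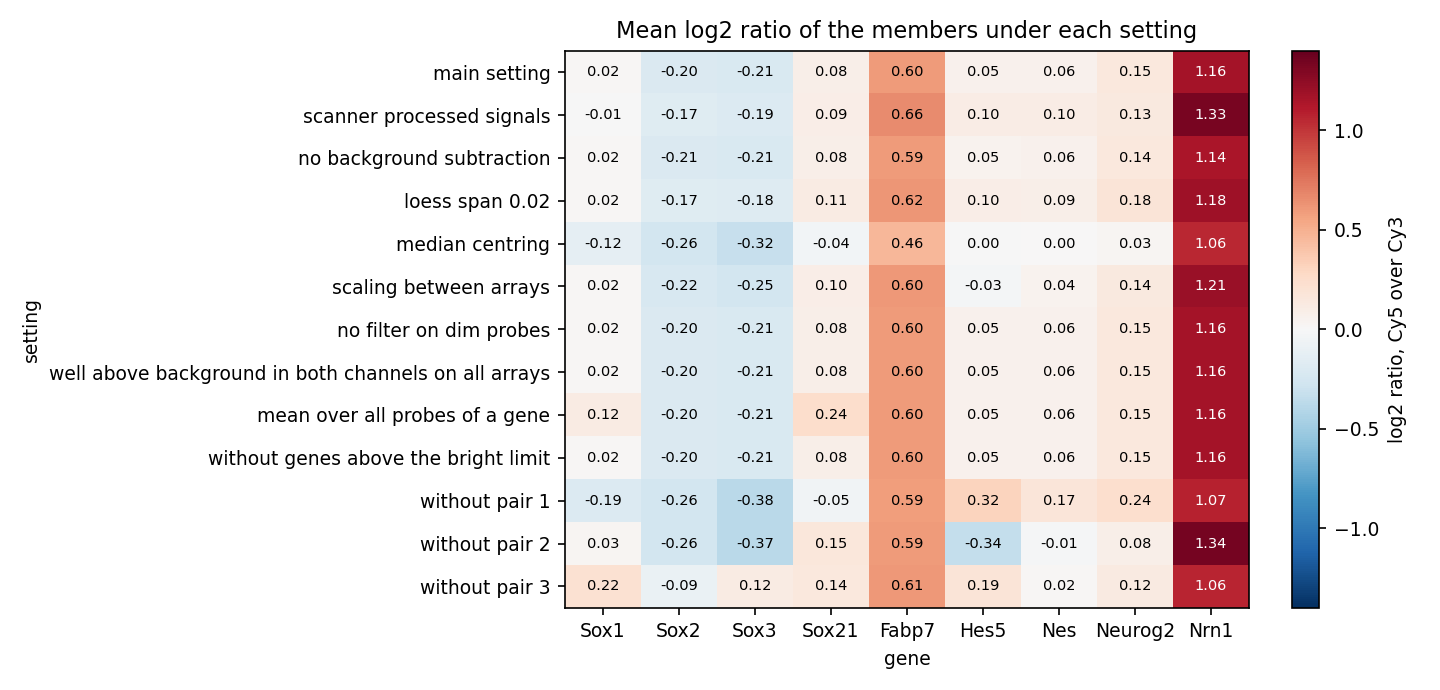
Mean log2 ratio of each tested member (columns) in the main setting and 12 alternatives (rows), coloured from blue (below 0) to red (above 0). The Nrn1 column stays between 1.06 and 1.34 and the Fabp7 column between 0.46 and 0.66, while Sox1, Sox21, Sox3, Hes5 and Nes change sign in at least 1 row.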

How the data were processed

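Per the file headers, the deposited intensity values came from Feature Extraction 10.7.3.1; the linear median pixel signals of spots and their surroundings were used. The deposited log10 ratios and processed intensities were background-subtracted and dye-normalized by that software, per the file headers. The authors' table of 40000 probes gives log2 ratios, p-values and scores such as log odds for the comparison. The submitters' processing notes name limma, without settings. Amplification was a single round from 350 ng of RNA, followed by dye coupling, per the labels' protocols.

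Background was corrected by normexp (offset 50) and each array's log2 ratio, Cy5 over Cy3, was then loess-normalized (span 0.3). Control and outlier spots had weight 0 and were then left out. Probes were kept where 1 channel was well above background on 2 or more of the 3 arrays (31603 of 55681), and the brightest probe stood for a gene. RefSeq accessions (GRCm38.p6 table) named 27656 of 29123 probes that carry one. Channel levels were also scaled between arrays (Aquantile). The mean ratio was tested against 0 with limma 3.58.1 in R 4.3.3 (eBayes, two-sided, Benjamini-Hochberg over 23555 genes). Each SE given is that of this fit, with the variance of a gene drawn towards that of all genes. It is therefore not the SE of the 3 pairs alone. The script was first tested on simulated data.

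The members and lists were chosen with earlier results of these data known. The named genes are all members, the first 6 of each related list as written, every call in a list, and the 3 genes nearest to Fabp7 and to Nrn1 over the pairs; others are said to have been chosen after their values were seen. A gene that this rule names is not reported here. The alternatives tried were processed signals, no background subtraction, a loess span of 0.02, median centring, scaling between arrays, 2 other filters on dim probes, the mean over a gene's probes, omission of genes above a mean log2 intensity of 16, and omission of each pair.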

Additional observations from a re-analysis of the deposited data

How the results depend on the processing

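Over 12 alternatives Fabp7 and Nrn1 kept their sign in all, and their adjusted p stayed below 0.05 in 3 and 5 of them (limma, range 0.0326 to 0.324 and 0.0261 to 0.291). Neurog2 stayed above 0 and Sox2 below 0 in all 12. Sox1, Sox3, Sox21, Hes5 and Nes changed sign in 3, 1, 2, 3 and 1 of them, and no value of these 5 genes lay outside -0.38 to 0.32. Of the 9 members tested, 0 passed with processed signals, a loess span of 0.02, scaling between arrays or omission of bright genes (2 with an unadjusted p below 0.05 in each), and 1 passed with median centring or the mean over probes. Counts over all genes, 326 in the main setting, were 0, 0, 0 and 0 in the first 4 (3454, 3508, 4325 and 3350 unadjusted), 651 with centring and 201 with the mean over probes. Without a pair, 0 members and 0 of all genes passed (2145 to 3831 unadjusted). The cause was not tested. The Notch and proneural median was -0.10 with processed signals, -0.0852 with the short span, and -0.16 to -0.10 without a pair. The paralogue median was -0.0408 and 0.0202 in these settings, -0.0220 without bright genes, and -0.0268 to 0.0326 without a pair. The test of each array's ratio against 0 is itself the paired analysis of the 3 pairs. Signal over background limits Neurog1, the dimmest member.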

Other observations

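Of the other fatty acid binding protein genes, Fabp1 to Fabp5 were tested; Fabp5 is described with the relatives of the members, at 0.20, 0.01 and 0.11. Fabp1 and Fabp2, of liver and intestine, had log2 ratios of 0.38, 1.27 and 0.32 and of 0.25, 0.99 and 0.52 in pairs 1, 2 and 3, highest in pair 2 for both. Fabp4, of fat, vessel and macrophage cells, had -0.88, -3.77 and 0.51, with pair 2 far below the others. Fabp3, of heart muscle, had 0.13, 0.01 and -0.33. These 4 genes were chosen after their values were seen, and none passed in limma (adjusted p from 0.193 to 0.793).

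The named genes whose 3 log2 ratios lay nearest to those of Fabp7, at a mean log2 intensity of at most 16, were Larp1b (0.60, 0.53 and 0.54; distance 0.0806), Vax2 (0.68, 0.63 and 0.62; 0.0867) and Clec2i (0.60, 0.51 and 0.53; 0.100). Nearest to Nrn1 were Tex19.1 (1.10, 0.96 and 1.16; Euclidean distance 0.341), Ifi27l2b (0.84, 1.11 and 1.06; 0.650) and B3galt5 (0.65, 1.00 and 1.15; 0.739). With 3 pairs such a likeness describes size and sign and little more.

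Sox2ot, the noncoding transcript that overlaps Sox2, was named by the authors' deposited table and chosen after its values were seen. Neither channel of any array held its probe well above background, so its ratios of -0.09, 0.51 and -0.06 have no measured level behind them.

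Dbx1, a homeobox gene of the middle neural tube, had log2 ratios of 0.04, 1.48 and -0.19. Hesx1, of the forebrain, had 0.14, -0.20 and -1.43. Both genes were chosen after their values were seen, and neither passed in limma (adjusted p of 0.519 and 0.444).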
